A study of Mus musculus with 12 samples.

Results

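The synaptic adhesion molecules described here are 35 genes, chosen by symbol, out of 24421 entries in the deposited table. They belong to 10 families: the neurexins Nrxn2 and Nrxn3, the LAR-type receptor phosphatases Ptprd, Ptprf and Ptprs, the neuroligins Nlgn1 to Nlgn3, the leucine-rich repeat proteins Lrrtm1 to Lrrtm4, Slitrk1 to Slitrk5 and Lrfn1 to Lrfn5, the interleukin-1 receptor relatives Il1rap and Il1rapl1, the immunoglobulin proteins Cadm1 to Cadm4, Flrt1 to Flrt3 and the teneurins Tenm1 to Tenm4. Every member was found in the table and passed the filter on low values, which asked that 3 or more libraries reach a normalized count of 10. Of the 35, 28 reached 10 in every library and 30 held at least 1 read in every library.

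Cells positive for green fluorescent protein were isolated by sorting from cerebellum of the Aldh1l1-GFP reporter line of mice at P1, P7, P14 and P28 (postnatal days 1, 7, 14 and 28), with 3 libraries at each of the 4 time points. All groups share the reporter, in which regulatory sequence of the astrocyte gene Aldh1l1 drives the fluorescent protein, the C57/BL6J background and the use of both sexes, so that age is the only labelled difference. The labels do not say whether the 3 libraries of an age came from separate animals, and p-values then measure the spread between these samples, which may be technical. The comparisons ask how the members changed over the first postnatal week, the second week, the span from P14 to P28, and from P1 to P28 as a whole.

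The libraries held 6399499 to 14733985 reads on genes, and 1 read was worth 0.615 to 1.46 normalized counts. Genes with at least 1 read numbered 17464 to 18051 at P1 and P7, against 16197 to 16642 (P14) and 14249 to 14749 (P28) later. The label astrocyte was checked against 12 astrocyte markers, led by the glutamate transporters Slc1a3 and Slc1a2, of which none was at 0 at any age. Their summed normalized count was 57576 to 74061, 28474 to 53023, 154352 to 196362 and 353903 to 414330.0 at P1, P7, P14 and P28. Aldh1l1 itself, in the same list, had means of 5008, 1470, 1879 and 2921 at these ages. From P1 to P28 it was called lower (log2 fold change -0.76, limma adjusted p = 0.0286), while 10 of the 12 were called higher, against 14.6% of all genes. From P1 to P7 Gfap rose (1.19, limma adjusted p = 0.0262), while 6 of the 12 fell, against 4.24% of all genes. Markers of other cells were present too. The sum of 9 oligodendrocyte lineage markers, led by the myelin genes Mbp and Mobp, was 8006 to 12403, 16914 to 24809, 156489 to 256535 and 82708 to 114363 at P1, P7, P14 and P28, so that at P14 it overlapped the astrocyte sum, and lay above it in P14 replicate 3 only. Mbp made up most of the sum from P7 on, while Pdgfra, the marker of oligodendrocyte precursors in the same list, went the other way. The mean of Pdgfra was 3646, 1281, 719.7 and 353 at P1, P7, P14 and P28, a fall called at each step. Olig1 fell from P1 to P7 and rose to P14, Cspg4 was lower at P28 than at P1, and 5 of the 9 genes had a log2 fold change below 0 from P1 to P7. The sum of 10 neuron markers, led by Snap25 and Elavl3, was 3066 to 7562, 12291 to 14832, 24863 to 43541 and 14526 to 19022 at P1, P7, P14 and P28. At P14 most of it was Snap25, with a mean of 21594 of a mean sum of 32689.7, and from P7 to P14 Tubb3 and Elavl4 fell, with 6 of the 10 genes below 0 and a median log2 fold change of -0.20.

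Lists of narrower cell types followed their own courses. The 7 granule neuron markers, led by Reln and Cbln3, summed to 2593 to 3998, 7646 to 12474, 12463 to 23068 and 8283 to 9748 at P1, P7, P14 and P28, and the granule neuron receptor gene Gabra6 was at 0 in all P1 libraries. The 7 GABAergic interneuron markers, led by Kit and Pax2, were highest at P7, at 4202 to 7952, against 745 to 2761, 493 to 694 and 239 to 678 at P1, P14 and P28. The 5 granule precursor markers, led by Mfap4 and Barhl2, summed to at most 4964, and Atoh1 was at 0 at P14 and P28. They went different ways, as 4 of the 5 were called lower from P1 to P28, against 20.0% of all genes. Barhl2 was called higher, with a mean of 106 at P1 and 1106 at P28 (log2 fold change 3.90, limma adjusted p = 0.000151). Sums of the Purkinje cell list (led by Itpr1 and Car8) and the microglia list (led by Csf1r and P2ry12) stayed at or below 4179. The endothelial list, led by Flt1 and Cdh5, stood at 2689 in P1 replicate 2 and 5909 in P7 replicate 2, against at most 1534 in the other 4 libraries of these ages. Several members are known to be made by neurons and by oligodendrocyte precursors as well as by astrocytes, and in sorted bulk samples a change in the share of a cell type cannot be told apart from a change in RNA per cell. The part of these cell types in the changes given here was not tested.

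**Figure D1:**
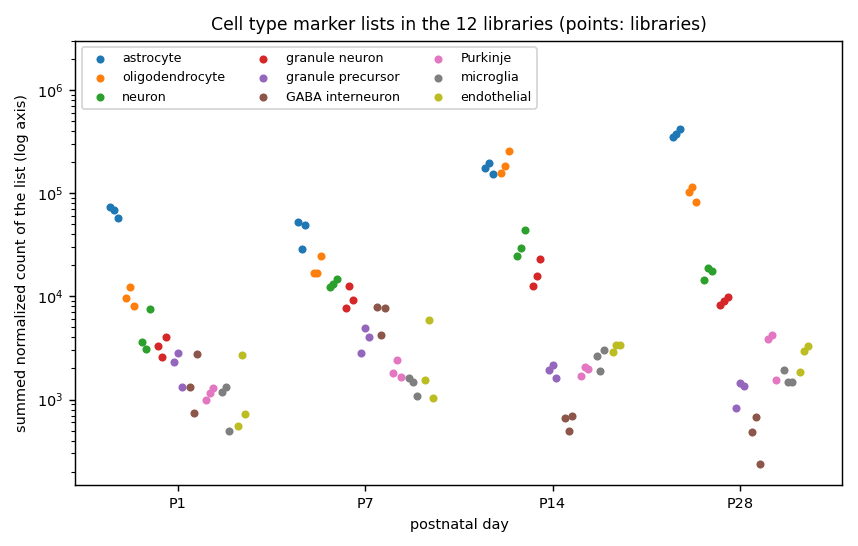
Summed normalized count of each cell type marker list (log axis) in the 12 libraries, by postnatal day, with 1 point per library. The oligodendrocyte points overlap the astrocyte points at P14 and lie below them at the other ages, and the neuron sum is highest at P14.

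Synaptic adhesion molecules bridge the cleft between the membranes of 2 cells. On the presynaptic side, neurexins and LAR-type receptor phosphatases act as hubs, and on the other side neuroligins, LRRTMs, SLITRKs, SALMs (the Lrfn genes) and interleukin-1 receptor relatives bind them. SynCAMs (the Cadm genes) bind each other from both sides, and teneurins and FLRTs bind the latrophilins. Astrocytes carry several of these proteins, and contact between astrocyte neuroligins and neuronal neurexins is known to shape astrocyte branches. In the cerebellum, granule cell synapses onto Purkinje cells form mostly after the first postnatal week and become wrapped by Bergmann glia.

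Of the 35 members, 28 changed over the 4 time points by limma's moderated F test, adjusted over all 15464 genes tested, where 43.8% of all genes were called. The 7 others were Nlgn2, Slitrk3, Lrfn1, Lrfn4, Il1rapl1, Flrt1 and Tenm4. From P1 to P7, 6 members fell (Ptprf, Nlgn3, Lrrtm2, Slitrk2, Cadm2 and Tenm3), against 4.24% of all genes, and 2 rose (Nrxn3 and Cadm3), against 3.47%. From P7 to P14, 12 members rose (Nrxn2, Ptprd, Nlgn3, Lrrtm3, Slitrk1, Slitrk2, Slitrk4, Il1rap, Cadm2, Cadm3, Cadm4 and Tenm1), against 10.8% of all genes, and 1 fell (Ptprs), against 10.0%. From P14 to P28, 11 members fell (Lrrtm1, Lrrtm2, Lrrtm3, Lrrtm4, Slitrk1, Lrfn5, Il1rap, Cadm1, Cadm3, Flrt3 and Tenm3), against 8.76% of all genes, and 4 rose (Nlgn1, Nlgn3, Slitrk2 and Lrfn3), against 5.68%. Between P1 and P28 as a whole, 14 members were lower, against 20.0% of all genes, and 9 were higher, against 14.6%.

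In these counts a call is a limma adjusted p under 0.05 (Benjamini-Hochberg, over all 15464 genes). The log2 fold changes of single genes below are differences of mean log2(normalized count + 1), most given with their standard error (SE). Values written with -fold are ratios of mean normalized counts, so they need not match the log2 fold change beside them. Where a call was lost or gained in a fit without 1 library, with only the 2 ages compared, with edgeR or DESeq2, or with scaling by library totals or TMM, the adjusted p of that fit, or the range over such fits, is given with the member. Scaling by library totals moved the median change of all genes to 0.095, -0.34, -0.35 and -0.66 for the 4 comparisons in the order given next. The median log2 fold change of the members was -0.58 from P1 to P7, 0.30 from P7 to P14, -0.42 from P14 to P28 and -0.91 from P1 to P28, beside 0.037, -0.086, -0.12 and -0.24 for all genes tested. At the study's threshold as read from its text, an unadjusted p under 0.05 with an absolute log2 fold change over 0.75, 10 members were lower at P7 than at P1, against 7.27% of all genes, and 2 were lower at P14 than at P7, against 13.1%. With only the compared ages in the fit, 15 members were lower from P1 to P7, against 9.51% of all genes, and 4 from P7 to P14, against 15.8%. From P14 to P28 that fit gave 6 lower, against 2.41%, and 2 higher, against 2.54%. With the count taken instead over libraries that did not overlap between ages, 18 members were lower and 2 higher from P1 to P7, against 18.2% and 20.1% of all genes. Between P7 and P14, 14 were higher and 4 lower by that measure, against 21.3% and 24.8%. From P14 to P28, 12 were lower and 6 higher, against 14.5% and 11.7%, and from P1 to P28, 17 were lower and 9 higher, against 24.0% and 17.9%.

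The mean was highest at P1 for 17 members, at P7 for 1 (Nrxn3), at P14 for 9 and at P28 for 8, where the shares of all genes tested were 22.6%, 26.5%, 19.8% and 31.1%. Of 12 patterns of calls over the 3 steps, no call at any step was the most frequent, with 11 members, and 67.5% of all genes tested had it. A fall from P14 to P28 alone was found for 5 members (5.67% of all genes), a rise from P7 to P14 alone for 5 (5.72%), and a rise to P14 followed by a fall for 3, namely Lrrtm3, Slitrk1 and Il1rap (0.976%). Nlgn3 and Slitrk2 shared a fall from P1 to P7 with rises at both later steps (0.957%).

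**Figure D2:**
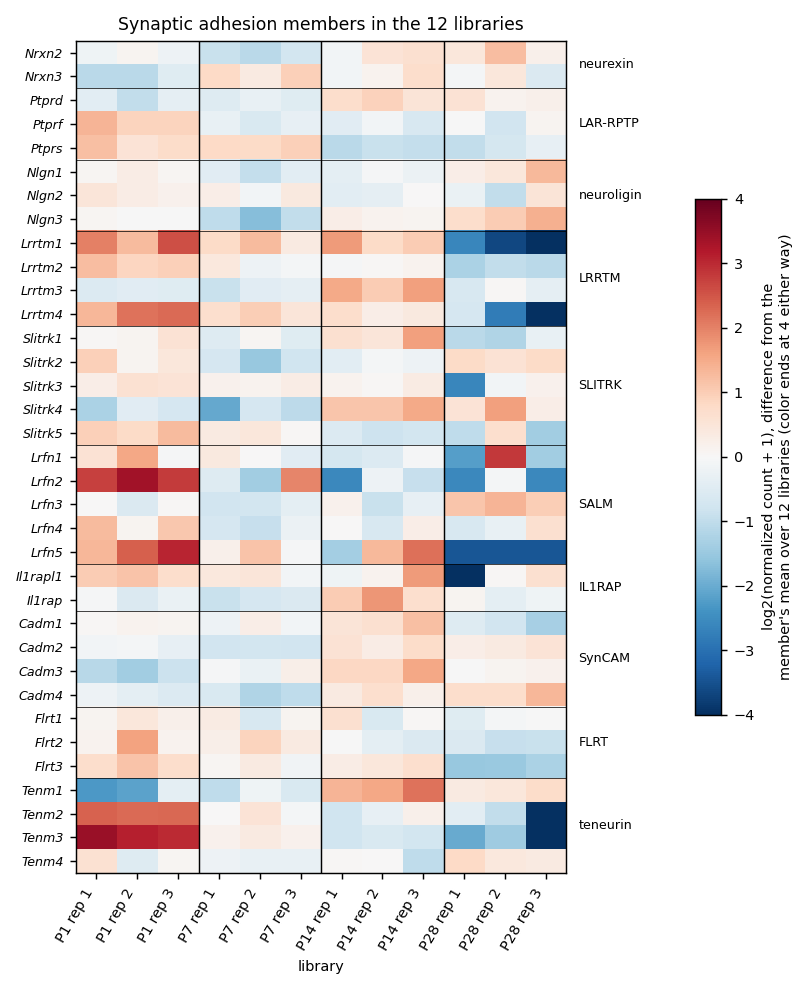
Each of the 35 members (rows, grouped by family) in each of the 12 libraries (columns), as log2(normalized count + 1) minus the member's mean over the libraries, with the color scale ending at 4 in either direction. Tenm2 and Tenm3 are highest in the P1 libraries, Lrrtm1, Lrrtm4 and Lrfn5 are lowest in the P28 libraries, and Tenm1 is highest in the P14 libraries.

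**Figure D3:**
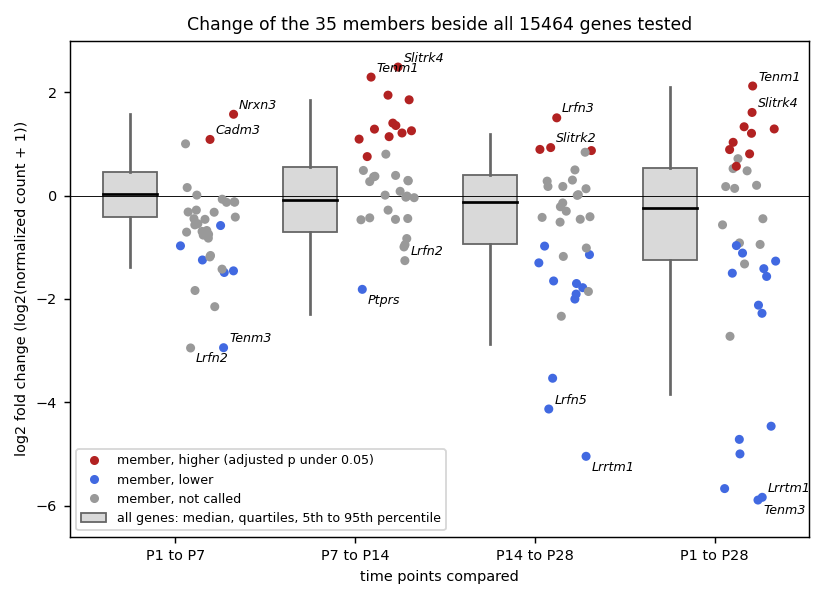
Log2 fold change of each member (points) for each pair of ages, beside boxes with the median, quartiles and 5th to 95th percentiles of all 15464 genes tested. Red and blue points are members called higher and lower, the extremes are named, and rises from P7 to P14 reach 2.49 (Slitrk4) while falls from P14 to P28 reach -5.05 (Lrrtm1).

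The neurexins are presynaptic receptors that bind neuroligins, LRRTMs and, through the cerebellins, delta glutamate receptors. Coordinates given with gene names are those of the whole gene in GENCODE M21 (GRCm38). Normalized counts of Nrxn3 (chr12:88722876-90334935) were 914, 905 and 1377 at P1, 3309, 2475 and 3694 at P7, 1764, 2106 and 3084 at P14 and 1815, 2629 and 1286 at P28. All 3 P7 libraries were above all P1 libraries, and the P14 and P28 libraries overlapped those of P7. Nrxn3 rose from P1 to P7 by a log2 fold change of 1.58 ± 0.28 (SE), adjusted p = 0.00276, and had no call at the later steps. Its net difference from P1 to P28, 0.81 ± 0.28 (SE), adjusted p = 0.0347, was not called without P1 replicate 1 (adjusted p = 0.115), P1 replicate 2 (0.108), P28 replicate 1 (0.0621) or P28 replicate 2 (0.137), nor with only these 2 ages in the fit (0.0801) or with scaling by library totals (0.30). The P1 and P28 libraries of Nrxn3 overlapped.

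Values of Nrxn2 were 685, 833 and 658 at P1, 408, 359 and 463 at P7, 701, 1119 and 1184 at P14 and 1051, 1793 and 886 at P28. The P7 libraries were the lowest, with no overlap with any other age. From P7 to P14 Nrxn2 rose, by 1.26 ± 0.27 (SE), adjusted p = 0.00408. The difference from P1 to P7 was -0.82 ± 0.27 (SE), adjusted p = 0.0872, and passed the threshold without P28 replicate 2 (adjusted p = 0.0342) and with only these ages in the fit (0.011). From P1 to P28 the difference was 0.72 ± 0.27 (SE), adjusted p = 0.0537, on the other side of the threshold from DESeq2 (adjusted p = 0.0314), edgeR with TMM (0.0357), edgeR with the deposited scaling (0.0426) and limma with TMM scaling (0.0456). It also passed without P14 replicate 1 (adjusted p = 0.0427) or P28 replicate 3 (0.0194). Per kb of exon, Nrxn3 made up 61.1% ± 7.80 (SD, n = 3), 89.3% ± 0.861, 71.6% ± 3.70 and 62.8% ± 2.26 of the sum of both neurexins at P1, P7, P14 and P28.

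The LAR-type receptor phosphatases Ptprd, Ptprf and Ptprs are presynaptic receptors for SLITRKs, SALMs and Il1rapl1, and they also bind proteoglycans. Each of the 3 had a call. Ptprs (chr17:56412426-56476483) stood at 7915, 4985 and 5749.7 at P1, 5956, 5863 and 6648 at P7, 1629.9, 1859 and 1761 at P14 and 1745, 2105 and 2722 at P28. The P1 and P7 libraries lay above all P14 and P28 libraries. Ptprs fell from P7 to P14 with a log2 fold change of -1.81 ± 0.19 (SE), adjusted p = 1.24e-05, which is 3.52-fold, and was the only member called lower at that step. The difference from P14 to P28 was 0.30 ± 0.19 (SE), adjusted p = 0.31.

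Ptprd (chr4:75941238-78211961) moved the other way in the same week. Its values were 3201, 2161 and 3302 at P1, 2992, 3477 and 3043 at P7, 6901, 8022 and 6159.6 at P14 and 6349.7, 4651 and 4949 at P28. Every P14 library was above every P1 and P7 library, and the P28 libraries lay between, overlapping P14. The rise from P7 to P14 was 1.14 ± 0.18 (SE), adjusted p = 0.000493, or 2.22-fold, and the net difference from P1 to P28 was 0.89 ± 0.18 (SE), adjusted p = 0.00195, which library totals took across the threshold (adjusted p = 0.0726). From P14 to P28 the difference was -0.41 ± 0.18 (SE), adjusted p = 0.153, and it was called with library totals (adjusted p = 0.0378). Ptprf, the founding member of the family, had 3003, 2157 and 2193 at P1, 958, 773 and 927 at P7, 858, 1092 and 749 at P14 and 1153, 691 and 1277 at P28. Its P1 libraries were the highest without overlap, and it fell from P1 to P7, with a log2 fold change of -1.46 ± 0.24 (SE), adjusted p = 0.00182.

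Per kb of exon, Ptprs made up 51.0% ± 1.70 (SD, n = 3), 63.5% ± 1.68, 22.5% ± 2.25 and 29.9% ± 6.50 of the sum of the 3 phosphatases at P1, P7, P14 and P28. Ptprd made up 15.7% ± 2.70, 21.5% ± 2.41, 58.8% ± 1.21 and 47.4% ± 6.63 at the same ages. The largest share was thus that of Ptprs at P1 and P7 and that of Ptprd at P14 and P28, in every library. The summed level of the 3 was 809 ± 171 normalized counts per kb at P1 and 493 ± 63.9 at P28.

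Windows around annotated transcription starts (250 bases before to 50 from the start, from RefSeq, build GRCm38.p6) were at hand for 26 of the 35 members, in 33 windows. Of 6 motifs searched on both strands, the palindromic cAMP response element TGACGTCA, the letters that CREB proteins bind, was found in 3 of these windows (9.09%), against 1.79% of 32851 windows of the same length. The 3 windows belong to Ptprs, Slitrk2 and Tenm3, 3 members with different courses, and are shown for that reason, with the element in capitals. The Ptprs window is at chr17:56476431-56476730, minus strand. The Slitrk2 window is at chrX:66652909-66653208, plus strand, and its start lies 3.84 kb inside the gene as GENCODE draws it. The Tenm3 window is at chr8:48674641-48674940, minus strand, at a start 169 kb inside the GENCODE gene.
Ptprs: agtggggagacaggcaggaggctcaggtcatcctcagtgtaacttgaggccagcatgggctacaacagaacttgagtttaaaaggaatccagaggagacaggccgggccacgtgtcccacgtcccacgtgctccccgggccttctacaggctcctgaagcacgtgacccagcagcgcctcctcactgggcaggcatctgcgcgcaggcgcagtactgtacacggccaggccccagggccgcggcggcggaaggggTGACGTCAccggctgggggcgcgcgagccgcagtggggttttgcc
Slitrk2: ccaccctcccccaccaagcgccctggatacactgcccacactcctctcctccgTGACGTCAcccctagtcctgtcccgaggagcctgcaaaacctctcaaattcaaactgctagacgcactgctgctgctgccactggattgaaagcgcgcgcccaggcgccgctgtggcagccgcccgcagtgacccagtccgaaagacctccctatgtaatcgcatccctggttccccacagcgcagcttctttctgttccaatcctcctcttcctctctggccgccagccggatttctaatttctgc
Tenm3: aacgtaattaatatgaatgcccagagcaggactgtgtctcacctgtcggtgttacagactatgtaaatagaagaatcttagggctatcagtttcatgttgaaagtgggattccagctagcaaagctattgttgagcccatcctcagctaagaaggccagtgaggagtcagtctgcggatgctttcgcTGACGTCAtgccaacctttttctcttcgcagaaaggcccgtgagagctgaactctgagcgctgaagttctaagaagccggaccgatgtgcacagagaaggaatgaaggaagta
The match begins at position 5 counted from the start in Ptprs, -197 in Slitrk2 and -63 in Tenm3. A match describes letters and is neither a bound site nor a cause of a change, and which of its starts a gene used was not measured. The other motifs were the TATA box TATAAA (6.06% of member windows, 13.6% of all windows), the GC box GGGCGG (33.3% and 35.7%), the CCAAT box CCAAT (21.2% and 37.4%), and the E-boxes CAGATG (9.09% and 17.2%) and CAGCTG (15.2% and 16.3%). None of these overlaps in letters with the element shown.

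Neuroligins are the best known partners of neurexins. Nlgn1 acts mainly at excitatory synapses, Nlgn2 at inhibitory ones and Nlgn3 at both. Nlgn3 (chrX:101299168-101325963) changed at each step. Its normalized counts were 3376, 3187 and 3179.6 at P1, 1581, 988 and 1640.2 at P7, 3860.2, 3563 and 3466 at P14 and 5235, 6441 and 8695 at P28. The P7 libraries were below those of every other age and the P28 libraries above, with no overlap, while P1 and P14 were next to each other. Nlgn3 fell from P1 to P7 with a log2 fold change of -1.25 ± 0.21 (SE), adjusted p = 0.00198. It rose from P7 to P14 by 1.41 ± 0.21 (SE), adjusted p = 0.00023. From P14 to P28 it rose again, by 0.87 ± 0.21 (SE), adjusted p = 0.0133, a call that was lost without P14 replicate 3 (adjusted p = 0.0511). Its net rise from P1 to P28 was 1.03 ± 0.21 (SE), adjusted p = 0.00158, or 2.09-fold. Of the exon bases of Nlgn3, 41.2% are shared with a same-strand transcript that has no entry of its own in the table, Gm21986, and reads there cannot be told apart.

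Nlgn1 had 1 call and Nlgn2 none. Values of Nlgn1 were 1132, 1324 and 1120.0 at P1, 774, 549.7 and 805 at P7, 810.2, 1045 and 915 at P14 and 1282, 1478 and 2639.7 at P28. The P28 libraries were all above those of P14 and spread over a wide range, with replicate 3 the highest. The rise of Nlgn1 from P14 to P28, 0.90 ± 0.25 (SE), adjusted p = 0.0284, was lost without P14 replicate 1 (adjusted p = 0.0977), P14 replicate 3 (0.0777) or P28 replicate 3 (0.0774), with only these ages in the fit (0.126) and with library totals (0.0682). Its difference from P1 to P7, -0.76 ± 0.25 (SE), adjusted p = 0.0853, was called without P28 replicate 3 (adjusted p = 0.0198) and with only these ages in the fit (0.0182), and that from P1 to P28, 0.52 ± 0.25 (SE), adjusted p = 0.118, without P28 replicate 1 (adjusted p = 0.0392). Nlgn2 had 1285, 1143 and 1028 at P1, 1108, 859 and 1215 at P7, 681, 723 and 935 at P14 and 767, 464 and 1309 at P28. No step of Nlgn2 was called, and its difference from P1 to P28 of -0.56 ± 0.30 (SE), adjusted p = 0.156 passed the threshold without P28 replicate 3 (adjusted p = 0.010) and with library totals (0.0125).

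Per kb of exon, Nlgn3 held 54.9% ± 1.63 (SD, n = 3), 38.7% ± 2.43, 65.8% ± 4.07 and 72.9% ± 5.0 of the neuroligin sum at P1, P7, P14 and P28. Nlgn2 held 31.1% ± 1.87, 47.6% ± 2.32, 22.6% ± 3.67 and 14.1% ± 4.40. P7 was the only age at which Nlgn2 had the larger share, in all 3 libraries. At P28 Nlgn3 had the highest level per kb of all 35 members, 732 ± 189 normalized counts per kb.

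LRRTMs are postsynaptic proteins of excitatory synapses that bind neurexins, and Lrrtm4 also binds heparan sulfate proteoglycans. In these cells 3 of the 4 ended lower at P28 than at P1, and Lrrtm3 peaked at P14. Lrrtm2, the LRRTM with the highest mean level per kb at each age, was at 3549, 2730.0 and 2864 at P1, 2002, 1297 and 1416 at P7, 1442, 1529 and 1642 at P14 and 627, 757 and 709 at P28. The P1 libraries were the highest and the P28 libraries the lowest, with no overlap, while P7 and P14 overlapped. Lrrtm2 fell from P1 to P7, with a log2 fold change of -0.97 ± 0.19 (SE), adjusted p = 0.00472, and from P14 to P28 with -1.14 ± 0.19 (SE), adjusted p = 0.00178. The net fall was -2.12 ± 0.19 (SE), adjusted p = 1.18e-06, or 4.37-fold.

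Lrrtm3 (chr10:63928472-64090277, inside the span of Ctnna3) stood at 272, 289 and 279 at P1, 214, 291 and 305 at P7, 1127, 793 and 1226 at P14 and 251, 407 and 309.7 at P28. The P14 libraries were far above those of the other ages, which overlapped. Lrrtm3 rose from P7 to P14 by 1.95 ± 0.26 (SE), adjusted p = 0.000109, and fell from P14 to P28, with a log2 fold change of -1.70 ± 0.26 (SE), adjusted p = 0.00127, so that P28 differed from P1 by 0.18 ± 0.26 (SE), adjusted p = 0.633. The mean neuron, granule neuron and oligodendrocyte marker sums given above were highest at P14 as well, although Tubb3, Elavl4 and Pdgfra of these lists fell from P7 to P14. From P7 to P14, 3 of 10 neuron, 3 of 7 granule neuron and 6 of 9 oligodendrocyte markers rose, against 10.8% of all genes. At the same step 10 of 12 astrocyte markers rose, and the astrocyte sum was higher still at P28. The mean microglia and endothelial sums were also highest at P14, with 1 of 6 and 0 of 5 markers called higher. The highest endothelial sum of any library was in P7 replicate 2. The part of these cells in the Lrrtm3 peak was not tested.

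Counts of Lrrtm1 were 168, 101 and 251 at P1, 70.1, 99.5 and 53.5 at P7, 136, 70.9 and 83.6 at P14 and 5.85, 2.36 and 0 at P28. From P1 to P14 the libraries of neighbouring ages overlapped or nearly met, and at P28 the 3 libraries held 6 reads of it in all. Lrrtm1 fell from P14 to P28, with a log2 fold change of -5.05 ± 0.73 (SE), adjusted p = 0.000798, and from P1 to P28 with -5.84 ± 0.73 (SE), adjusted p = 3.31e-05, or 63.3-fold between the means. Lrrtm4 had 138, 248 and 264 at P1, 88.4, 109.9 and 77.5 at P7, 89.0, 65.6 and 71.7 at P14 and 33.6, 7.08 and 0 at P28. Each P28 library was below each library of the other ages. From P1 to P7 the difference of Lrrtm4, -1.19 ± 0.94 (SE), adjusted p = 0.592, was called with only these ages in the fit (adjusted p = 0.0262). The fall of Lrrtm4 from P14 to P28, -3.53 ± 0.94 (SE), adjusted p = 0.0224, was lost without any 1 of the P14 libraries (adjusted p of 0.0537 to 0.0701), with edgeR (0.0637 with either scaling) and with only these ages in the fit (0.184). Its net fall from P1 to P28 was -5.0 ± 0.94 (SE), adjusted p = 0.000933. As both genes end near 0, these log2 values depend on the pseudocount of 1. Of the exon bases of Lrrtm4, 25.1% are covered by an antisense transcript, and whether counting used the strand is not stated.

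The makeup of the LRRTM family shifted with these changes. Per kb of exon, Lrrtm2 gave 76.0% ± 4.65 (SD, n = 3), 71.1% ± 7.44, 47.1% ± 5.70 and 59.7% ± 2.97 of the family at P1, P7, P14 and P28. Lrrtm3 gave 10.0% ± 1.34, 17.9% ± 5.15, 44.8% ± 4.76 and 38.6% ± 4.11. The family sum was 664 ± 68.2, 364 ± 48.8, 546 ± 64.7 and 195 ± 26.6 normalized counts per kb at P1, P7, P14 and P28, with the P28 libraries below all others.

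**Figure D4:**
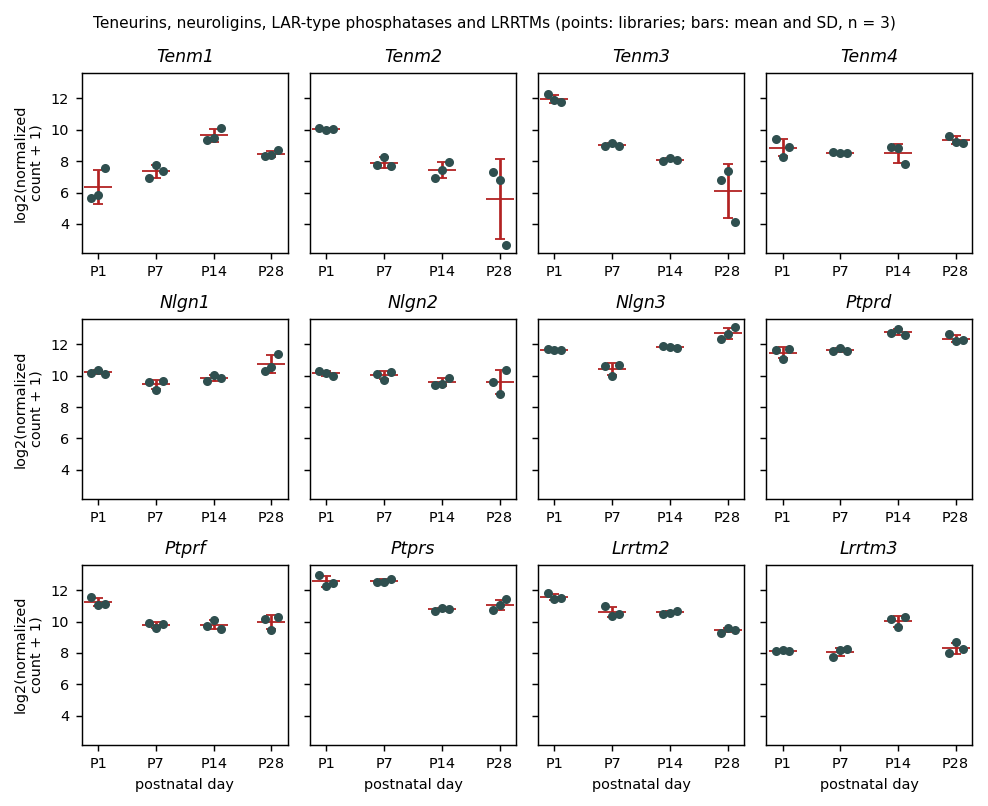
Log2(normalized count + 1) of the 4 teneurins, 3 neuroligins, 3 LAR-type phosphatases, Lrrtm2 and Lrrtm3 by postnatal day, with 1 point per library and red bars for the mean and SD (n = 3). Tenm3 falls from P1 on, Ptprs steps down and Ptprd up between P7 and P14, Nlgn3 dips at P7, and Lrrtm3 is high at P14 alone.

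SLITRKs are postsynaptic ligands of the LAR-type phosphatases, and Slitrk3 is known for its role at inhibitory synapses. Slitrk2 (chrX:66649318-66661393) had the highest mean level per kb of the 5 at each age. Its values were 2393, 1341 and 1678 at P1, 779, 436 and 717 at P7, 923, 1177 and 1083 at P14 and 2107, 1864 and 2081 at P28. P7 held the lowest libraries, with no overlap, and P28 lay within the range of P1. It fell from P1 to P7, with a log2 fold change of -1.49 ± 0.24 (SE), adjusted p = 0.00174, and rose from P7 to P14 by 0.76 ± 0.24 (SE), adjusted p = 0.0387 and from P14 to P28 by 0.93 ± 0.24 (SE), adjusted p = 0.0208. The first rise was lost in 6 of 12 fits with 1 library left out (P1 replicate 3, each P14 library, P7 replicates 2 and 3, at 0.0512 to 0.182), and the second without P14 replicate 1 (adjusted p = 0.0782) or P14 replicate 3 (0.0578). Library totals ended both (adjusted p of 0.148 and 0.0605), and edgeR with the deposited scaling the first (0.0507). The promoter window of Slitrk2 is the second of those printed above.

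Slitrk1 and Slitrk4 were higher at P14 than at P7. Slitrk4 had 37.5, 67.2 and 56.8 at P1, 21.5, 57.6 and 43.4 at P7, 197, 198 and 263 at P14 and 133, 288 and 111 at P28. The P14 and P28 libraries were above all P1 and P7 libraries. Slitrk4 rose from P7 to P14 by 2.49 ± 0.52 (SE), adjusted p = 0.0033, or 5.37-fold, the largest rise of any member at that step. Its net rise from P1, 1.61 ± 0.52 (SE), adjusted p = 0.027, was lost without P1 replicate 1 (adjusted p = 0.103), P1 replicate 3 (0.0588) or P28 replicate 2 (0.0851), with only these ages in the fit (0.086) and with library totals (0.0832).

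Slitrk1 was at 189, 197 and 269.6 at P1, 128, 192 and 131 at P7, 283, 253 and 570.1 at P14 and 84.8, 77.8 and 149 at P28. P14 replicate 3 was the highest library, with the other P14 libraries well below it but above those of P7 and P28. The rise from P7 to P14 was 1.21 ± 0.40 (SE), adjusted p = 0.0434, and was lost in 8 of 12 fits with 1 library left out (each P1 and P7 library and P14 replicates 1 and 3, at 0.0551 to 0.191) and with library totals (adjusted p = 0.0997). The fall from P14 to P28, -1.78 ± 0.40 (SE), adjusted p = 0.00987, was lost without P14 replicate 3 (adjusted p = 0.0521) or with only these ages in the fit (0.086). The net fall, -1.11 ± 0.40 (SE), adjusted p = 0.0431, was lost in 9 of 12 such fits (adjusted p of 0.0528 to 0.148, in all but those without P14 replicate 2, P14 replicate 3 or P28 replicate 3), with edgeR (0.0575 and 0.0621) and with only these ages in the fit (0.118).

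Slitrk5 and Slitrk3 had no call at any single step. Slitrk5 had 292, 258 and 359.7 at P1, 193, 207 and 156 at P7, 102, 84.6 and 90.1 at P14 and 74.5, 242 and 56.8 at P28. P28 replicate 2 lay apart from the other P28 libraries, near the P7 level. Its net fall from P1 to P28, -1.56 ± 0.47 (SE), adjusted p = 0.019, was lost without P1 replicate 1 (adjusted p = 0.0545), P1 replicate 3 (0.0747) or P28 replicate 3 (0.0569), with edgeR (0.0535 and 0.0597) and with only these ages in the fit (0.0834). Without P28 replicate 2, the difference from P7 to P14 of -0.99 was called (adjusted p = 0.0345), as it was with only these ages in the fit (0.0287). That from P1 to P7, -0.71, was called with only these ages in the fit (adjusted p = 0.049999). Values of Slitrk3 ranged from 110.9 to 184 in 11 libraries, and the exception was P28 replicate 1 with 19.0. No difference of Slitrk3 was called with all libraries. The net value of -1.32 ± 0.58 (SE), adjusted p = 0.0934 was called without P28 replicate 2 (adjusted p = 0.0459) or P28 replicate 3 (0.0234) and with library totals (0.0237). Per kb of exon, Slitrk2 made up 60.8% ± 8.23 (SD, n = 3), 44.8% ± 10.1, 49.0% ± 7.36 and 75.7% ± 8.86 of the SLITRK sum at P1, P7, P14 and P28.

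The SALM proteins, encoded by the Lrfn genes, are postsynaptic. Those of Lrfn1, Lrfn2 and Lrfn4 end in a motif that binds the scaffold PSD-95, and those of Lrfn4 and Lrfn5 bind the LAR-type phosphatases. Lrfn2 and Lrfn5 came near the detection limit. Lrfn3 (chr7:30355489-30362772) was the only SALM called higher. Its normalized counts were 177, 116 and 180.2 at P1, 102, 106 and 135 at P7, 197, 94.2 and 139 at P14 and 381, 455 and 346 at P28. The P28 libraries were above all others, which overlapped. The rise from P14 to P28 was 1.51 ± 0.36 (SE), adjusted p = 0.0138, or 2.75-fold, and was not called with only these ages in the fit (adjusted p = 0.0738). The net rise was 1.33 ± 0.36 (SE), adjusted p = 0.0106, not called with library totals (adjusted p = 0.0614).

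Lrfn5 counts were 25.8, 55.0 and 87.1 at P1, 11.1, 22.2 and 9.30 at P7, 3.18, 25.4 and 47.8 at P14 and 0, 0 and 0 at P28. No read was found in any of the P28 libraries, and a count of 0 allows up to 3 reads per library, or 3.54 to 4.38 normalized counts. Against that floor, the P28 level of Lrfn5 was at least 6.37-fold below that of P14 and at least 14-fold below that of P1. P14 replicate 1 lay below the floor itself, and without P14 replicate 3 the bound against P14 was 3.58-fold. The call at P14 to P28 (adjusted p = 0.00995) was lost with a pseudocount of 10 (adjusted p = 0.0617) or with only these ages in the fit (0.0634), and the net call had an adjusted p of 0.000323. From P1 to P7 Lrfn5 differed by -1.84 ± 0.93 (SE), adjusted p = 0.31, which was called with only these ages in the fit (adjusted p = 0.0497). Lrfn2 was at 39.4, 60.7 and 40.9 at P1, 3.18, 1.31 and 22.5 at P7, 0, 4.23 and 2.17 at P14 and 0, 4.72 and 0 at P28. Every P1 library was above all libraries of the other ages. Its fall from P1 to P28 was -4.72 ± 1.05 (SE), adjusted p = 0.00318, and no single step was called with all libraries, while the difference from P1 to P7 was called with only these ages in the fit (adjusted p = 0.0332) or a pseudocount of 10 (0.019).

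Lrfn4 had 332, 147 and 285 at P1, 85.2, 72.0 and 115 at P7, 139, 86.7 and 164 at P14 and 87.7, 109.7 and 214 at P28. Every P7 library was below every P1 library, with a difference of -1.42 ± 0.46 (SE), adjusted p = 0.0838, which passed the threshold without P28 replicate 3 (adjusted p = 0.0419), with DESeq2 (0.0124) and with only these ages in the fit (0.0193). From P1 to P28 the difference was -0.91 ± 0.46 (SE), adjusted p = 0.141, and it was called without P28 replicate 3 (adjusted p = 0.0418) and with library totals (0.029). Lrfn1 was between 22.2 and 110.7 at P1, P7 and P14, and at P28 it had 7.31, 270.1 and 13.5. P28 replicate 2 thus stood far above all other libraries. No difference of Lrfn1 was called with that library, and without it the net difference from P1 to P28 was -2.49 (adjusted p = 0.0123). The Lrfn1 value of P28 replicate 2 was not seen in another library, and its source was not tested.

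Il1rap is the co-receptor of the interleukin-1 receptor, with a brain form that binds Ptprd, and the related Il1rapl1, a gene of X-linked intellectual disability, binds Ptprd as well. Values of Il1rap (chr16:26581704-26730117) were 448, 304 and 385 at P1, 248, 289 and 308 at P7, 922, 1569 and 731 at P14 and 495, 351 and 404 at P28. All P14 libraries were above all others, with replicate 2 the highest. Il1rap rose from P7 to P14 by 1.86 ± 0.28 (SE), adjusted p = 0.000315, or 3.81-fold. It fell from P14 to P28, with a log2 fold change of -1.30 ± 0.28 (SE), adjusted p = 0.00878, not called with only these ages in the fit (adjusted p = 0.0631), and the P28 libraries overlapped those of P1. Il1rapl1 was at 129, 139 and 103 at P1, 85.2, 89.0 and 58.9 at P7, 56.1, 69.8 and 207 at P14 and 0, 64.9 and 98.7 at P28. No read was found in P28 replicate 1, while the other 2 libraries of that age were near the P7 values. No difference of Il1rapl1 was called with all libraries, and the net value of -2.72 ± 1.25 (SE), adjusted p = 0.106 was called without P28 replicate 2 (adjusted p = 0.0478) or P28 replicate 3 (0.0236).

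Il1rap and Lrrtm3 shared a peak at P14, and their promoter windows are set side by side for that reason. The Il1rap window is at chr16:26581455-26581754, plus strand, and the Lrrtm3 window at chr10:64090206-64090505, minus strand (RefSeq, GRCm38.p6). Capitals mark GC boxes (GGGCGG or its reverse complement) and the CCAAT box.
Il1rap: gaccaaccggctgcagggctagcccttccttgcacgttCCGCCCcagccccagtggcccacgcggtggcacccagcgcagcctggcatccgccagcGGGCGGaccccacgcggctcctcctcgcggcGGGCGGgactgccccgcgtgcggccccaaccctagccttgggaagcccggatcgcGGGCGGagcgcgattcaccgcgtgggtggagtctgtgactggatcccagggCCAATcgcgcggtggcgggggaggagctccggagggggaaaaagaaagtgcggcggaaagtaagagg
Lrrtm3: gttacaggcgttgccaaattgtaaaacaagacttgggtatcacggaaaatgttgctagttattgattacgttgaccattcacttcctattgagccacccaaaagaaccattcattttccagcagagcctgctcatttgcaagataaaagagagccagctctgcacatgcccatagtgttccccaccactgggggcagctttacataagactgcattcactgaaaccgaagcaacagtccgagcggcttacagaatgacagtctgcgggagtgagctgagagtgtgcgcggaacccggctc
The Il1rap window holds 4 GC boxes, 1 CCAAT box and 33 CpG dinucleotides, and the Lrrtm3 window holds none of the 6 motifs and 10 CpG. The median over the member windows was 12 CpG, and that over all windows was 7.

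SynCAMs are adhesion proteins of the immunoglobulin family that bind one another across the cleft, and the pair of axonal Cadm3 and glial Cadm4 is known from contacts of axons with myelinating glia. Their summed level per kb of exon was 620.0 ± 31.0, 637 ± 62.5, 1473 ± 206 and 1245 ± 204 at P1, P7, P14 and P28, and at P14 and P28 it had the highest mean of the 10 families. Cadm3 (chr1:173333258-173367695) was at 1053, 852 and 1245 at P1, 2162, 1864 and 2670.3 at P7, 4012, 3999.8 and 6539.7 at P14 and 2214, 2425 and 2564 at P28. The libraries rose from age to age up to P14 without overlap, and those of P28 fell back to the range of P7. Cadm3 rose from P1 to P7 by 1.09 ± 0.21 (SE), adjusted p = 0.00544 and from P7 to P14 by 1.09 ± 0.21 (SE), adjusted p = 0.00201. From P14 to P28 it fell, with a log2 fold change of -0.98 ± 0.21 (SE), adjusted p = 0.00867.

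Cadm4 was called at the P7 to P14 step alone. Its values were 568, 504 and 451 at P1, 429, 287 and 322 at P7, 843, 1044 and 763 at P14 and 1074, 1062 and 1665 at P28. Every P14 and P28 library was above every P1 and P7 library. The rise from P7 to P14 was 1.36 ± 0.24 (SE), adjusted p = 0.00091, and the net rise 1.29 ± 0.24 (SE), adjusted p = 0.000801. Cadm2 had 2145, 2182 and 1857 at P1, 1367, 1391 and 1372 at P7, 3494, 2847 and 3828 at P14 and 2810.2, 2995 and 3374 at P28. P7 was lowest and P14 and P28 highest, without overlap with P1. Cadm2 rose from P7 to P14 by 1.29 ± 0.15 (SE), adjusted p = 3.4e-05, the smallest standard error of any member at that step. The fall from P1 to P7, -0.58 ± 0.15 (SE), adjusted p = 0.0305, was lost without P1 replicates 1 or 2 or any 1 of the P7 libraries (adjusted p of 0.0828 to 0.113). The net rise, 0.57 ± 0.15 (SE), adjusted p = 0.00974, was not called with library totals (adjusted p = 0.488).

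Cadm1 was at 303, 324 and 320.3 at P1, 253, 356 and 273 at P7, 422, 462 and 674 at P14 and 206, 175 and 116 at P28. The P14 libraries were the highest and the P28 libraries the lowest. It fell from P14 to P28, with a log2 fold change of -1.65 ± 0.29 (SE), adjusted p = 0.00297, or 3.14-fold. The net fall, -0.97 ± 0.29 (SE), adjusted p = 0.0201, was lost without any 1 of the P1 libraries (adjusted p of 0.0502 to 0.0568), without P28 replicate 3 (0.0549) and with only these ages in the fit (0.0919). The rise from P7 to P14 of 0.80 missed the threshold (adjusted p = 0.0675) and passed it without P28 replicate 1 (adjusted p = 0.0447) or P28 replicate 3 (0.0298), with DESeq2 (0.0197) and with only these ages in the fit (0.0289). Within the family, the share of Cadm3 per kb was 23.4% ± 4.71 (SD, n = 3), 48.2% ± 4.96, 44.8% ± 6.92 and 26.9% ± 2.68 at P1, P7, P14 and P28, and that of Cadm4 was 37.8% ± 2.75, 25.1% ± 4.37, 28.3% ± 7.34 and 46.6% ± 4.88.

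FLRT proteins bind latrophilins and the Unc5 netrin receptors, and Flrt2 and Flrt3 act in cell migration and axon guidance. Flrt3 (chr2:140650914-140671469, inside the span of Macrod2) had 596, 817 and 600.5 at P1, 386, 476 and 335 at P7, 452, 508 and 586 at P14 and 127, 129.7 and 153 at P28. The P28 libraries were below all others, which spanned a narrow range from P7 to P14. The difference from P1 to P7 was -0.75 ± 0.24 (SE), adjusted p = 0.0853, called with DESeq2 (adjusted p = 0.0157) and with only these ages in the fit (0.0293). It fell from P14 to P28, with a log2 fold change of -1.91 ± 0.24 (SE), adjusted p = 0.000467, and in all from P1 with -2.28 ± 0.24 (SE), adjusted p = 8.32e-06, which is 4.91-fold.

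Flrt2 was at 850.2, 2371 and 853 at P1, 919.6, 1455 and 988 at P7, 763, 598 and 515 at P14 and 519, 414 and 422 at P28. P1 replicate 2 and P7 replicate 2 were the highest libraries of their ages, and these are the 2 libraries with the high endothelial sums given above. The part of endothelial cells in the Flrt2 values was not tested. Flrt2 ended lower at P28 than at P1, with a log2 fold change of -1.41 ± 0.34 (SE), adjusted p = 0.00526. Its difference from P7 to P14, -0.83 ± 0.34 (SE), adjusted p = 0.102, was called without P1 replicate 2 (adjusted p = 0.0196), with only these ages in the fit (0.017) and with library totals (0.0313). Flrt1 ranged from 258 to 628 over the 12 libraries, and P28 lay below P1 while all other ages overlapped. For Flrt1 no difference was called with all libraries, while with library totals its net value of -0.88 was (adjusted p = 0.0422).

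Teneurins are large transmembrane proteins that bind latrophilins across the cleft and, in part, each other. Tenm3 is known to guide the matching of neurons in wiring, and Tenm4 takes part in oligodendrocyte differentiation. The 4 teneurins took separate courses, and the net fall of Tenm3 was among the largest of any member, close to that of Lrrtm1 on the fitted scale. Tenm3 (chr8:48227682-48843951) was at 4949, 3856 and 3530.2 at P1, 507, 572 and 508 at P7, 259, 293 and 268 at P14 and 109.6, 167 and 16.2 at P28. The libraries of each age were below all those of the age before, and P28 replicate 3 was the lowest. Tenm3 fell from P1 to P7, with a log2 fold change of -2.94 ± 0.57 (SE), adjusted p = 0.00537, or 7.77-fold. From P1 to P28 it fell, with a log2 fold change of -5.89 ± 0.57 (SE), adjusted p = 3.26e-06, or 42.1-fold between the means. The fall from P14 to P28, -2.0 ± 0.57 (SE), adjusted p = 0.0318, was lost without any 1 of the P14 libraries (adjusted p of 0.0777 to 0.087) and with only these ages in the fit (0.235). From P7 to P14 the difference was -0.95 ± 0.57 (SE), adjusted p = 0.286, and it was called without P28 replicate 3 (adjusted p = 0.00439) and with only these ages in the fit (0.00342). The promoter window of Tenm3 is the third of those printed with Ptprs.

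Tenm2 had 1102, 1023 and 1059 at P1, 214, 311 and 203 at P7, 123, 171 and 247 at P14 and 158, 109 and 5.41 at P28. The P1 libraries were the highest without overlap, and P28 replicate 3 was far below the other P28 libraries. The net fall of Tenm2 from P1 to P28 was -4.46 ± 0.84 (SE), adjusted p = 0.000949. Its difference from P1 to P7, -2.15 ± 0.84 (SE), adjusted p = 0.154, did not pass the threshold in the fit of all libraries. It passed without P28 replicate 3 (adjusted p = 0.000602), with DESeq2 (0.0112) and with only these ages in the fit (0.000354). Leaving out a P28 library changes the shared estimate of the spread and cannot change the log2 fold change from P1 to P7. The difference from P14 to P28, -1.86 ± 0.84 (SE), adjusted p = 0.152, was called without P28 replicate 1 (adjusted p = 0.0369). In P28 replicate 3, Tenm2, Tenm3, Lrrtm1 and Lrrtm4 all had their lowest values of the 12 libraries, although its 9337259 reads were within the range of the others. That library also had the fewest genes with a read (14249), the highest astrocyte sum (414330) and the lowest GABAergic interneuron sum (239). Its Purkinje cell sum was 1543, against 3861 and 4179 in the other P28 libraries, while its neuron sum lay between theirs. The part of these differences in the low values was not tested.

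Tenm1 (chrX:42527866-43429126) took the opposite course. Its normalized counts were 49.2, 55.7 and 189 at P1, 121, 219.9 and 161 at P7, 641, 723 and 1114 at P14 and 314, 341 and 415 at P28. The P14 libraries were the highest without overlap, the P28 libraries were second, and P1 replicate 3 stood above the other P1 libraries. Tenm1 rose from P7 to P14 by 2.30 ± 0.45 (SE), adjusted p = 0.00212, or 4.93-fold, and was higher at P28 than at P1 by 2.12 ± 0.45 (SE), adjusted p = 0.00233. The difference from P1 to P7, 1.00 ± 0.45 (SE), adjusted p = 0.232, was called without P1 replicate 3 (adjusted p = 0.0173). That from P14 to P28, -1.18 ± 0.45 (SE), adjusted p = 0.0955, was called without P1 replicate 3 (adjusted p = 0.0328) and with DESeq2 (0.0471). Tenm1 shares 8.25% of its exon bases with the opposite-strand gene Sh2d1a. Tenm4 was between 224 and 786 in all libraries, with the P28 libraries above most others, and none of its differences was called. Its change from P14 to P28 was 0.84 ± 0.32 (SE), adjusted p = 0.0984.

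The teneurin makeup therefore differed at each age. Tenm3 gave 76.6% ± 2.85 (SD, n = 3), 51.8% ± 1.93, 25.2% ± 3.05 and 12.9% ± 9.61 of the family sum per kb of exon at P1, P7, P14 and P28. Tenm1 gave 1.12% ± 1.00, 9.32% ± 1.87, 42.8% ± 7.81 and 30.8% ± 11.6. Tenm4 gave 4.39% ± 1.18, 17.9% ± 2.27, 17.6% ± 7.81 and 46.0% ± 6.62. The mean share was highest for Tenm3 at P1 and P7, for Tenm1 at P14 and for Tenm4 at P28. The sum itself went from 523 ± 80.0 normalized counts per kb at P1 to 100.03 ± 11.0 at P7 and 68.8 ± 13.9 at P28, and Tenm4 itself had no call.

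**Figure D5:**
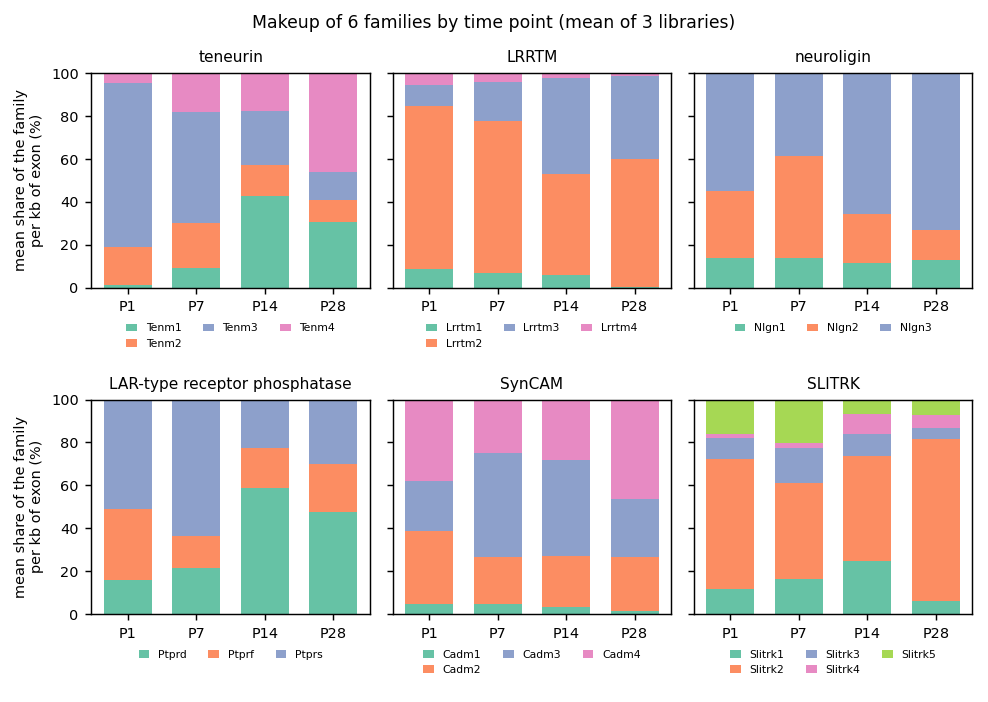
Mean share (%) of each gene in the summed level per kb of exon of its family, at P1, P7, P14 and P28 (mean of 3 libraries), for 6 families. The Tenm3 share falls from 76.6% to 12.9%, the Ptprd share rises from 15.7% to 47.4%, and the Nlgn3 share rises from 54.9% to 72.9%, with 38.7% at P7.

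Across families, levels per kb of exon reordered with age. At P1 the highest members were Lrrtm2 (506 ± 72.9 normalized counts per kb, SD, n = 3), Ptprs (415 ± 101) and Tenm3 (402 ± 72.6), whose ranges of mean ± SD overlapped. At P7 they were Ptprs (411 ± 28.6), Cadm3 (308 ± 56.3) and Lrrtm2 (261 ± 62.7). At P14 Cadm3 (669 ± 202) was followed by Cadm4 (409 ± 66.9) and Nlgn3 (392 ± 22.1), with the first pair within their spread. At P28 the order was Nlgn3 (732 ± 189), Cadm4 (586 ± 159) and Cadm3 (331 ± 24.3), again with the first pair within their spread. Lrfn5 and Lrfn2 were the lowest at P28.

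Other synaptic organizers, in a list of 25 genes outside the members, were counted the same way, with 24 tested. From P1 to P7, 2 rose and 8 fell, against 3.47% and 4.24% of all genes. Between P7 and P14, 6 rose and 3 fell, against 10.8% and 10.0%. From P14 to P28, 4 rose and 5 fell, against 5.68% and 8.76%. The most abundant were Dag1, which encodes dystroglycan, and Adgrl3, the latrophilin that binds FLRTs and teneurins. Adgrl3 was at 2894, 2723 and 2893 at P1, 1503, 1495 and 1331 at P7, 2329.9, 3492 and 3085 at P14 and 6633, 6524 and 8902 at P28. Like Nlgn3, it fell from P1 to P7 (-0.98 ± 0.17 (SE), adjusted p = 0.00286) and rose to P14 (1.02 ± 0.17 (SE), adjusted p = 0.000674) and to P28 (1.31 ± 0.17 (SE), adjusted p = 0.000529). Dag1 was called in the same directions, at -1.13, 0.90 and 0.74, the last of which was lost without P14 replicate 1 or 3 (up to 0.0894). Of the 12 astrocyte markers, Slc1a2, Gja1, Aldoc and Sox9 were also called lower, higher and higher at these steps, and the others were not. The first fall of Slc1a2 was lost in some fits without 1 library (adjusted p up to 0.16). Whether these genes and the markers share a source was not tested.

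The extremes of that list were mostly Unc5 netrin receptors, which bind FLRTs. Unc5c had the largest rise from P1 to P7 (2.73 ± 0.46 (SE), adjusted p = 0.00212), and Unc5d the largest fall, at -3.14 ± 0.59 (SE), adjusted p = 0.00426, as well as the largest fall from P14 to P28, at -3.73 ± 0.59 (SE), adjusted p = 0.00152. From P7 to P14 Unc5b had the largest rise (1.95 ± 0.45 (SE), adjusted p = 0.00669), and Mdga1, which masks neuroligins, the largest fall (-3.37 ± 0.68 (SE), adjusted p = 0.00254). Unc5d and Tenm3 each fell at the first and the last step.

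Among 20 synaptic scaffold genes, 2 rose and 0 fell from P1 to P7 by limma, against 3.47% and 4.24% of all genes. None were lower at an unadjusted p under 0.05 or by edgeR or DESeq2. In libraries that did not overlap 10 were higher and 1 was lower, against 20.1% and 18.2% of all genes. Between P7 and P14, 6 rose and 2 fell, against 10.8% and 10.0%, and from P14 to P28, 2 rose and 3 fell, against 5.68% and 8.76%. The most abundant were Cask, which binds neurexins from inside the cell, and Dlgap1, of the PSD-95 complex. Cask fell from P7 to P14, with a log2 fold change of -0.68 ± 0.16 (SE), adjusted p = 0.00816. Dlgap1 rose from P7 to P14 by 1.33 ± 0.18 (SE), adjusted p = 0.000132 and from P14 to P28 by 0.77 ± 0.18 (SE), adjusted p = 0.0139, the latter lost without P14 replicate 1 (adjusted p = 0.0588). Among called changes, the largest from P1 to P7 was the rise of Dlg2 (1.77 ± 0.37 (SE), adjusted p = 0.00783, lost without P7 replicate 2 at 0.0504). The largest called change from P14 to P28 was the fall of Dlg2 (-1.53 ± 0.37 (SE), adjusted p = 0.014, lost without P14 replicate 3 at 0.0689). Ppfia4, a liprin of the LAR-type phosphatases, had the largest rise from P7 to P14 (2.91 ± 0.90 (SE), adjusted p = 0.0334), which was lost without P7 replicate 1 or 3 or any 1 of the P14 libraries (up to 0.128). Magi1 had the largest called fall from P7 to P14, -1.48 ± 0.18 (SE), adjusted p = 4.06e-05. Dlgap2, with 0 reads at P28, had larger differences that were not called. They were -2.41 from P7 to P14 (adjusted p = 0.118) and -2.31 from P14 to P28 (adjusted p = 0.147).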

How the data were processed

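RNA of sorted GFP-positive cerebellar cells was sequenced in 12 libraries, which the labels assign to 4 ages with 3 libraries per age. The authors aligned reads to mm10 with STAR (version 2.5.0a per the labels), counted them per gene in R and scaled the counts with DESeq2 (labels 1.30.1). The deposited values are a normalized signal in units of reads over a size factor, 1 size factor per library, and dividing by the value of 1 read gave whole reads for 100% of values (tolerance 0.01). All 12 column names carry P28 whatever the age, and 0 columns belonged to no sample, so the ages rest on the labels. Whether counting used strand, and how reads of overlapping genes were treated, is not given in the sources used here.

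Tests were run with limma (3.58.1, R 4.3.3, trend) on log2(value + 1), a mean per age over the 12 libraries, two-sided, for the 15464 genes with at least 10 in at least 3 libraries, and called at a Benjamini-Hochberg adjusted p under 0.05. Alternatives were edgeR (4.0.16) and DESeq2 (1.42.0) on recovered reads, other scalings, pseudocounts and filters, fits of the compared ages alone, the replicate block, the study's threshold as read (unadjusted p under 0.05, absolute log2 fold change over 0.75) and leaving out each library. Scripts were tested on simulated data. Library totals ran from 6399499 to 14733985 reads. A count of 0 allows up to 3 reads at 95% confidence, which covers counting error only. Replicates of an age differed by more than sampling noise. Levels per kb divide by merged exons (GENCODE M21, GRCm38, the build of mm10). All 35 members are named, with the 2 most abundant genes of each other list and the organizers and scaffolds with the largest called change per step. 1 gene of the oligodendrocyte list is not reported here and was left out of its sum. The members and lists were chosen with earlier results of these data known.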

Additional observations from a re-analysis of the deposited data

How the results depend on the processing

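Over the 35 members and 4 comparisons there were 59 calls. None changed sign in any fit, and 14 were lost in at least 1 of the 12 fits without 1 library. Over those fits, members called lower ran from 5 to 9 (P1 to P7), 1 to 2 (P7 to P14), 8 to 12 (P14 to P28) and 11 to 16 (P1 to P28), members called higher from 2 to 3, 10 to 13, 1 to 4 and 7 to 10, and the medians from -0.73 to -0.56, 0.17 to 0.42, -0.83 to -0.22 and -0.91 to -0.45. Members changed at any time ran from 27 to 30, and those highest at P1, P7, P14 and P28 from 15 to 18, 1 to 3, 9 to 11 and 6 to 8. With only the ages compared in the fit, 15 members were lower from P1 to P7, 4 were lower between P7 and P14, 6 between P14 and P28, and 2 were higher between P14 and P28. At the study's threshold, 10 were lower from P1 to P7 and 2 from P7 to P14. With library totals, 2 were lower from P7 to P14, 2 higher from P14 to P28 and 4 higher from P1 to P28. The members' median from P1 to P28 was then -1.35, and 2 were highest at P7, against 36.1% of all genes tested. Library totals also moved the median of all genes, to -0.34, -0.35 and -0.66 for these 3 comparisons. Shares of all genes called are not given for library totals or the fits without 1 library, so those counts describe the members alone. The members' median from P1 to P28 was -0.41 with edgeR and TMM, -0.45 with edgeR and the deposited scaling, -0.44 with DESeq2 and -0.56 with a pseudocount of 10. Asking for 10 in every library left 28 members, of which 9 were lower from P1 to P28, with a median of 0.16. This filter removed Lrrtm1, Lrrtm4, Lrfn2 and Lrfn5, which ended near 0. It also removed Lrfn1, Tenm2 and Il1rapl1, which were under 10 in only 1 library, at P28. The cause of these shifts was not tested.

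The labels do not say whether replicate numbers pair libraries across ages. The correlation of deviations from the age means between same-numbered libraries ran from -0.029 to 0.14 over 18 pairs, with a median of 0.031. Between libraries of different number it ran from -0.105 to 0.054, with a median of -0.011. Of the 12 libraries, 9 correlated best with their own number. This is a hint of pairing from the data alone, and its source was not tested. A fit with the replicate block changed 1 call, the net rise of Nrxn2 (adjusted p = 0.0499), so that 10 members were called higher from P1 to P28, and left every other count as it was. Depth limits the low members: Lrrtm1, Lrrtm4, Lrfn2, Lrfn5 and Il1rapl1 had a library with 0 reads, in which up to 3 reads could have been missed.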

Other observations

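The members are long genes. Their median span from first to last annotated base was 83.2 kb, against 24.5 kb for 14829 tested genes with an annotation, and 10 of the 35 (28.6%) span more than 500 kb, against 1.44% of those genes. The 10 are Nrxn3, Ptprd, Nlgn1, Lrrtm4, Il1rapl1, Cadm2 and the 4 teneurins. The median log2 fold changes of these 10 and of the other 25 were -0.63 and -0.57 from P1 to P7, 0.12 and 0.36 from P7 to P14, and -0.79 and -0.42 from P14 to P28, so that the long members were not higher at any step. From P1 to P28 as a whole the medians were 0.50 and -0.94, while that of all 213 genes over 500 kb was -0.54, and none of these differences was tested. Over that span 4 of the 10 were called higher and 3 lower, 5 of the other 25 higher and 11 lower, and 50 of the 213 higher and 78 lower.

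Several members lie inside the span of another gene, which matters where a count cannot tell the 2 apart. Lrrtm1, Lrrtm2 and Lrrtm3 lie within Ctnna2, Ctnna1 and Ctnna3, which encode alpha-catenins, Flrt1 and Flrt3 within Macrod1 and Macrod2, Lrfn1 within Samd4b and Lrfn4 within Pcx. Shared exon bases with genes that have an entry in the table were few, at most 8.25% (Tenm1 with Sh2d1a), followed by Cadm3 with Ackr1 (4.98%) and Nrxn2 with Slc22a12 (4.94%). Of the members inside another gene, Lrrtm2 shared 95 exon bases with its host Ctnna1 (1.58%), on the opposite strand.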
